A study of Mus musculus with 3 samples.

Results

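LINE-2 (L2) and L3 repeats were examined in RNA that came down with antibodies from mouse hippocampus. All 8 repeat names of this kind (L2, L2a, L2b, L2c, L2d, L2d2, L3 and L3b), selected by their names out of 18484 listed names with earlier results of these data known, had reads in every library. The material was RNA immunoprecipitation sequencing of hippocampus from C57BL/6 mice aged 9 months, in 3 libraries with 1 library per group. The groups were PS19 mice with an anti-ZBP1 pull-down, PS19 mice with a pull-down of Z-form nucleic acid (ZNA), and wild-type (WT) mice with the ZNA pull-down. PS19 is a line in which the mouse prion promoter drives a mutant human tau, and ZBP1 is a cytosolic and nuclear sensor with domains that bind left-handed double helices. The labels do not state how many animals went into a library, and no input, isotype-control or WT ZBP1 library was analysed here. Every value below therefore lacks a replicate error, no p-value is given, and intervals are 95% intervals of counting error only.

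L2 and L3 are LINEs, retrotransposons without long terminal repeats that encode their own reverse transcriptase and copy themselves at a nicked target site. L3 belongs to the CR1 branch, the branch that is abundant in birds and reptiles, and L2 to a sister branch. Both stopped moving in the mammalian lineage long before mouse and human separated, so that only worn, mostly 5′-truncated copies are left, many of them inside introns and untranslated regions of genes. MIR, an ancient tRNA-derived SINE, ends in a tail that resembles the 3′ end of L2 and is thought to have used the L2 machinery to spread. A name sums the reads of all its copies. A read from an L2 copy within the transcript of a host gene and a read from an L2 transcript of its own cannot be told apart here, and no position, strand or consensus sequence can be given for a value.

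The libraries held 1425383 (PS19 ZBP1), 2918985 (PS19 ZNA) and 3234786 (WT ZNA) reads on repeat names. Most of them fell on the pair of rRNA names, which left 74474, 308613 and 145372 reads outside rRNA, or 5.22%, 10.6% and 4.49% of the libraries. The large-subunit to small-subunit rRNA ratio was 1.32 in the ZBP1 library, against 0.796 and 0.637 in the PS19 and WT ZNA libraries. Since the share of rRNA differs, each repeat was expressed both as CPM (its reads out of every 1000000 reads of the library total) and as non-rRNA CPM (its reads out of every 1000000 reads outside rRNA). The files list repeat names and no genes, so that hippocampal marker genes could not be checked. BC1_Mm, the name of the neuronal BC1 RNA, had 33 reads in the PS19 ZBP1, 146 in the PS19 ZNA and 77 in the WT ZNA library (443, 473 and 530 non-rRNA CPM).

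Together the 8 L2 and L3 names had 1365 reads in the PS19 ZBP1, 4675 in the PS19 ZNA and 2002 in the WT ZNA library. Per library total, the order was PS19 ZNA (1602 CPM), PS19 ZBP1 (958 CPM) and WT ZNA (619 CPM). As a share of reads outside rRNA the order was a different one, with 1.83% (Wilson interval 1.74 to 1.93%) in PS19 ZBP1, 1.51% (1.47 to 1.56%) in PS19 ZNA and 1.38% (1.32 to 1.44%) in WT ZNA. Neighbouring libraries in this order had intervals that did not overlap. The place of the ZBP1 library, between the ZNA libraries or above them both, thus depended on whether rRNA was counted.

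The unlettered name L2 and the subfamily L2a were the most abundant members. L2 had 382 reads in the PS19 ZBP1, 1507 in the PS19 ZNA and 626 in the WT ZNA library, which are 268, 516 and 194 CPM. L2a had 461, 1645 and 738 reads (323, 564 and 228 CPM) in the same order. L2a ranked 41st of 1101 names with reads outside rRNA in the ZBP1 library, 59th of 1322 in the PS19 ZNA and 57th of 1145 in the WT ZNA library. Subfamilies differ in the number and length of their copies, and the counts are not corrected for either, so that the order of names within a library says nothing about the level per copy.

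L2b and L2c, were the members of intermediate abundance. L2b had 183, 514 and 205 reads in PS19 ZBP1, PS19 ZNA and WT ZNA (128, 176 and 63.4 CPM), and L2c had 152, 443 and 169 reads (107, 152 and 52.2 CPM). L3, the main CR1-type member, had 117, 364 and 144 reads (82.1, 125 and 44.5 CPM). For all of these members the PS19 ZNA library was the highest per library total and WT ZNA the lowest.

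The minor members were L2d, L2d2 and L3b. L2d had 18, 72 and 47 reads in PS19 ZBP1, PS19 ZNA and WT ZNA (12.6, 24.7 and 14.5 CPM). L2d2 had 34, 91 and 54 reads (23.9, 31.2 and 16.7 CPM). For L3b the counts were 18, 39 and 19 (12.6, 13.4 and 5.87 CPM). All lay above the level that 3 reads, the limit for a count of 0, correspond to in these libraries (2.10, 1.03 and 0.927 CPM). For L2d alone the ZBP1 library was the lowest of the 3 per library total, although its interval overlapped that of WT ZNA in the plot of levels.

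In non-rRNA CPM, 5 members had their lowest level in WT ZNA, an intermediate level in PS19 ZNA and their highest level in PS19 ZBP1. These values were 4306, 4883 and 5129 for L2, 5077, 5330 and 6190 for L2a, 1410, 1666 and 2457 for L2b, 1163, 1435 and 2041 for L2c, and 991, 1179 and 1571 for L3. The minor names departed from that order. WT ZNA was the highest library for L2d (323, against 233 in PS19 ZNA and 242 in PS19 ZBP1) and stood in the middle for L2d2 (371, against 295 and 457) and L3b (131, against 126 and 242).

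**Figure D1:**
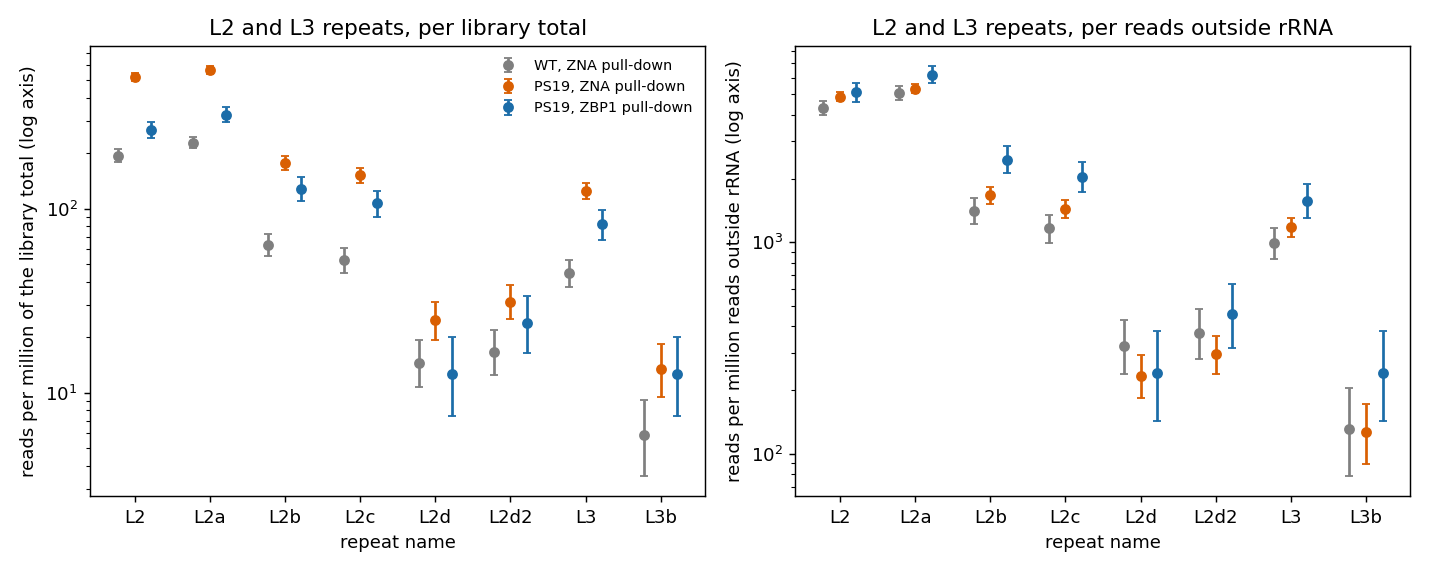
Level of each L2 and L3 name in the 3 libraries, in CPM of the library total (left) and in non-rRNA CPM (right), both on a log axis. Points are single libraries and bars are exact 95% Poisson intervals of the count. On the left the PS19 ZNA points are the highest for every name (L2a at 564 CPM), and on the right the ZBP1 points are the highest for every name except L2d.

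The PS19 and WT ZNA libraries compare the repeat RNA that came down with the ZNA pull-down in tauopathy and normal hippocampus. With no input library, a difference in Z-form RNA cannot be told apart from one in RNA abundance or background capture. L2 and L3 reads were 2.59-fold higher in PS19 per library total (exact interval 2.46 to 2.73) but only 1.10-fold higher per reads outside rRNA (1.04 to 1.16) and 1.04-fold higher, with an interval that includes no difference (0.988 to 1.10), under TMM scaling, which centres the repeat names on each other. All 8 names were higher in PS19 per library total, from 1.70-fold for L2d (1.16 to 2.51) to 2.90-fold for L2c (2.43 to 3.49). So were 97.5% of the 713 names that passed a filter on low values, so this direction is not particular to the members. L2 was 2.67-fold (2.43 to 2.93), L2a 2.47-fold (2.26 to 2.70), L2b 2.78-fold (2.36 to 3.28) and L3 2.80-fold higher (2.30 to 3.42).

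Per reads outside rRNA, 5 names were higher and 3 were lower in PS19. Of the 711 names that passed the filter on low values, 59.6% were higher, so the members' count is near that share. The share of all names with an interval above 1 was not computed. The interval lay above 1 for L2 (1.13-fold, 1.03 to 1.25), L2b (1.18-fold, 1.003 to 1.40) and L2c (1.23-fold, 1.03 to 1.48). With small structural RNA names also left out of the denominator, all of these intervals included no difference (log2 -0.031 to 0.24 for L2, -0.073 to 0.40 for L2b and -0.032 to 0.49 for L2c). L2a was at 1.05-fold (0.962 to 1.15) and L3 at 1.19-fold (0.979 to 1.45), and both intervals include 1; L2a lay slightly below no difference with that other denominator (log2 -0.0067). The names below 1 were L2d (0.722, 0.493 to 1.07), L2d2 (0.794, 0.561 to 1.13) and L3b (0.967, 0.545 to 1.77), whose intervals also include 1. Under TMM scaling L2a joined these names slightly below 1 (0.994, 0.910 to 1.09), and all 8 intervals included 1.

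The members stood close to the other repeats in this comparison. On log2(CPM + 1), all 8 members passed the filter on low values, which asked for 20 summed reads and an average of 1 CPM. Of these, 6 reached 2-fold higher in PS19 per library total (L2, L2a, L2b, L2c, L3 and L3b) and 0 reached 2-fold lower. The background over all 713 names was 74.3% higher and 0.421% lower by this limit, so the members' count is near it. The median log2 ratio was 1.36 over the members and 1.24 over all names. Per reads outside rRNA, 0 members passed 2-fold in either direction, beside 4.64% of 711 names higher and 2.95% lower. The medians were then 0.13 and 0.079.

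The ZBP1 and ZNA libraries of PS19 compare the repeat RNA that came down with the antibody to the sensor and with that to Z-form nucleic acid. With no isotype-control library, RNA bound by the target cannot be told apart from background capture. Per library total, L2 and L3 reads were 1.67-fold lower with the ZBP1 antibody (1.57 to 1.78), whereas per reads outside rRNA they were 1.21-fold higher (1.14 to 1.29) and under TMM scaling 1.22-fold higher (1.15 to 1.30). The direction is thus set by the scale, and both are given for each member. Per library total, 9.09% of the 682 names that passed the filter had a ratio above 1. The ratio on this scale was below 1 for all 8 members, as for most names, from 0.512 for L2d (0.287 to 0.867) to 0.945 for L3b (0.509 to 1.69). It was 0.519 for L2 (0.463 to 0.581), 0.574 for L2a (0.516 to 0.637), 0.729 for L2b (0.613 to 0.865), 0.703 for L2c (0.581 to 0.847) and 0.658 for L3 (0.530 to 0.813).

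Per reads outside rRNA, the ratio of the ZBP1 to the ZNA library was above 1 for all 8 names, and the interval lay above 1 for 6 of them. Of all 680 names that passed the filter, 47.2% had a ratio above 1. The share of all names with an interval above 1 was not computed, so the count of 6 has no background beside it. L2b was 1.48-fold (1.24 to 1.75), L2c 1.42-fold (1.17 to 1.71) and L3 1.33-fold higher (1.07 to 1.64). L2a was 1.16-fold higher (1.05 to 1.29). L2d2 was 1.55-fold higher on 34 and 91 reads (1.01 to 2.32), and L3b 1.91-fold higher on 18 and 39 reads (1.03 to 3.42). For L2 (1.05-fold, 0.936 to 1.18) and L2d (1.04-fold, 0.581 to 1.76) the interval included 1. TMM scaling gave the same 6 and 2 names on either side.

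**Figure D2:**
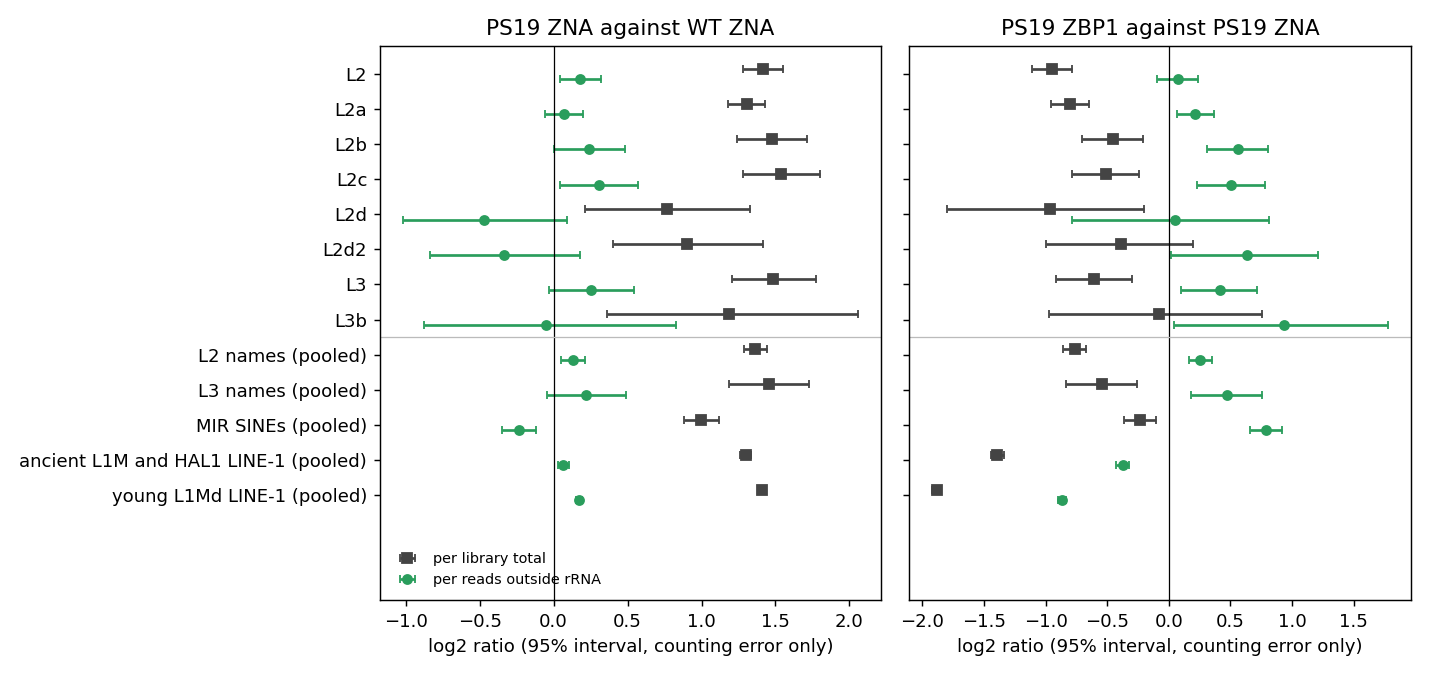
Log2 ratio of PS19 ZNA over WT ZNA (left) and of PS19 ZBP1 over PS19 ZNA (right) for the 8 names and, below the grey line, for pooled reads. Squares are per library total, circles per reads outside rRNA, and bars are exact 95% intervals of counting error. In the right panel every L2 and L3 name lies left of 0 per library total and right of 0 per reads outside rRNA. The pooled L2 and L3 names lie there between the MIR and LINE-1 pools, an order that the choice of scale cannot change.

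In this second comparison the members' median lay above that of all names. A change of scale moves all names by nearly the same amount, so the scales do not check each other here. The median log2 ratio per library total was -0.55 over the 8 members and -1.002 over all 682 names. Of the members, 0 reached 2-fold lower with ZBP1, beside 50.1% of all names, and 0 reached 2-fold higher, beside 0.293%. Per reads outside rRNA the medians were 0.46 and -0.054, and 0 members passed 2-fold, beside 9.12% of 680 names higher and 9.41% lower. All 8 members lay above 0 on that scale, as did 47.2% of all names.

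LINE-1 names, the other large LINE group of the mouse genome, lay mostly on the opposite side of 0 from the members per reads outside rRNA, and on the same side per library total, where their median was -1.52 and 4 of them, against 0 of the 8 members, were above 0. Of the 126 LINE-1 names compared (names starting with L1, Lx or HAL1), 17 were above 0 per reads outside rRNA, with a median of -0.52, and 9 reached the members' median. The 17 were all among the 70 ancient L1M and HAL1 names, and 0 of the 25 young L1Md names were above 0. Between the PS19 and WT ZNA libraries LINE-1 names and the members overlapped, with medians of 0.064 and 0.13 per reads outside rRNA.

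**Figure D3:**
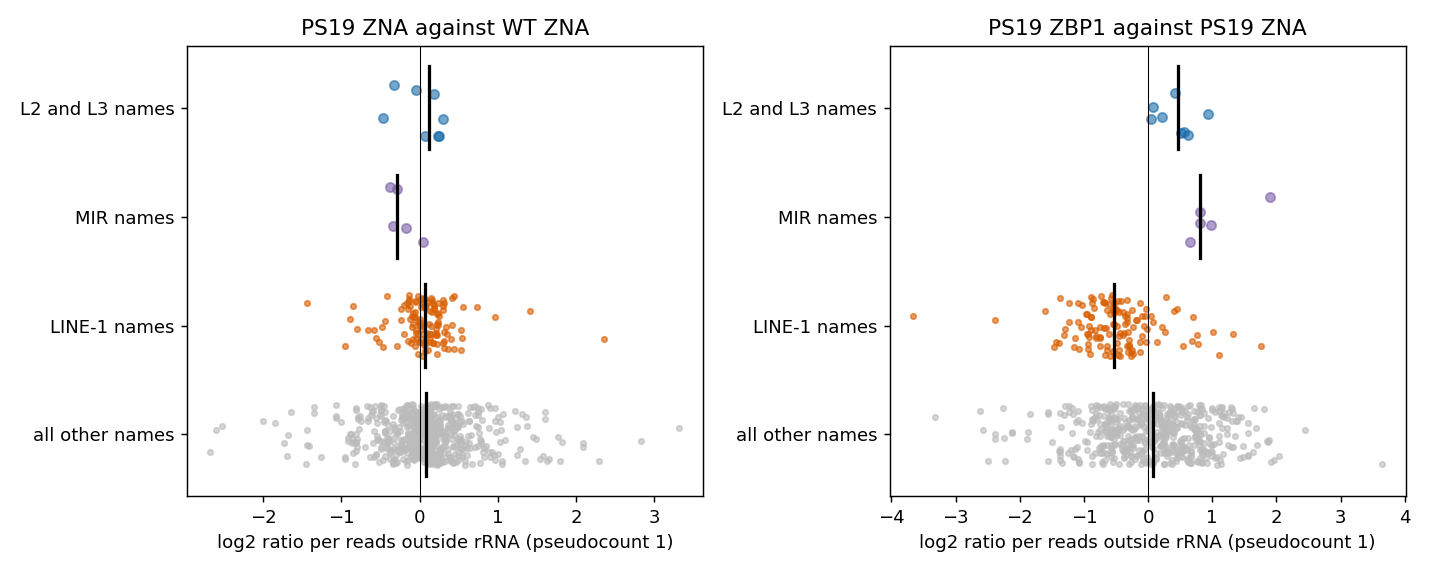
Log2 ratio per reads outside rRNA (pseudocount of 1 non-rRNA CPM) of every compared name, by kind of repeat; points are names, shifted vertically for visibility, and black lines are medians. In the left panel the medians of the L2 and L3 names (0.13) and LINE-1 names (0.064) lie close together, and in the right panel they lie at 0.46 and -0.52.

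Reads of 2 kinds of repeat within a library can be divided by each other without any scaling, so this ratio does not depend on rRNA. For each read on an ancient L1M or HAL1 name (89 names) there were 0.411 L2 and L3 reads in PS19 ZBP1, 0.262 in PS19 ZNA and 0.249 in WT ZNA. Within PS19 this ratio was 1.57-fold higher with ZBP1 than with ZNA (1.46 to 1.69), and 1.05-fold higher in PS19 ZNA than in WT ZNA, with an interval that includes no difference (0.992 to 1.12). Against the 25 young L1Md names, which include the LINE-1 subfamilies still able to move, there were 18.6, 8.42 and 8.63 L2 and L3 reads per 100 L1Md reads. That ratio was 2.21-fold higher in ZBP1 than in ZNA of PS19 (2.07 to 2.36) and 0.976-fold between the ZNA libraries (0.924 to 1.03). Relative to LINE-1, the L2 and L3 reads hence differed between the antibody libraries by more than counting error. Between the PS19 and WT ZNA libraries both intervals included no difference. With 1 library per group, these intervals cannot show whether the genotypes differ.

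MIR, the SINE with the L2-like tail, gave the opposite direction. There were 1.95 L2 and L3 reads per MIR read in PS19 ZBP1, 2.78 in PS19 ZNA and 2.15 in WT ZNA, from 699, 1680 and 931 reads on 5 MIR names. The ratio was 1.43-fold lower in ZBP1 than in ZNA of PS19 (1.28 to 1.59) and 1.29-fold higher in PS19 ZNA than in WT ZNA (1.17 to 1.43). Per reads outside rRNA, MIR reads were 1.72-fold higher in ZBP1 than in ZNA of PS19 (1.58 to 1.88), although 1.17-fold lower per library total (1.07 to 1.28), and 1.18-fold lower in PS19 ZNA than in WT ZNA (1.08 to 1.28). All 5 MIR names had a ratio of ZBP1 to ZNA above 1 on this scale, and the most abundant, MIRb and MIR, were 1.57-fold (1.36 to 1.81) and 1.75-fold higher (1.51 to 2.02). The L2 and L3 pool and the MIR pool thus lay on opposite sides of 1 between the ZNA libraries on that scale. Single names did not all follow, since MIR3 was at 1.03 (0.709 to 1.52) and L2d, L2d2 and L3b were below 1. The L2 and L3 interval included no difference without small structural RNA in the denominator (log2 -0.015 to 0.14) and under TMM scaling (0.988 to 1.10). Per library total both pools were higher in PS19 (2.59-fold for L2 and L3, 1.9997-fold for MIR).

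The order of the pooled ratios of ZBP1 to ZNA in PS19, per reads outside rRNA, was young L1Md (0.548, 0.535 to 0.562), ancient L1M and HAL1 (0.771, 0.743 to 0.800), L2 and L3 (1.21), other ancient CR1-type and RTE-type LINEs (1.51, 1.18 to 1.93) and MIR (1.72). Per library total the ratios were 0.271, 0.381, 0.598, 0.748 and 0.852. The change of scale multiplies every pool by the same factor, so this order could not differ and is no second check. The L2 and L3 pool and the other CR1-type and RTE-type LINEs (19 names, 91 and 249 reads) were neighbours with overlapping intervals, and L2 and L3 reads per read of that list were 0.799-fold in ZBP1 against ZNA (0.621 to 1.04). The neighbour on the other side, ancient L1M and HAL1, had an interval that did not overlap with that of the L2 and L3 pool (1.14 to 1.29).

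Within the family, L2 took 27.99% of the L2 and L3 reads in PS19 ZBP1 (25.7 to 30.4%), 32.2% in PS19 ZNA (30.9 to 33.6%) and 31.3% in WT ZNA (29.3 to 33.3%). The intervals of the PS19 libraries did not overlap. L2a took 33.8%, 35.2% and 36.9%, L2b 13.4%, 10.99% and 10.2%, and L2c 11.1%, 9.48% and 8.44%. The L3 names together took 9.89% (8.42 to 11.6%), 8.62% (7.85 to 9.46%) and 8.14% (7.02 to 9.42%), with intervals that overlap between all libraries.

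**Figure D4:**
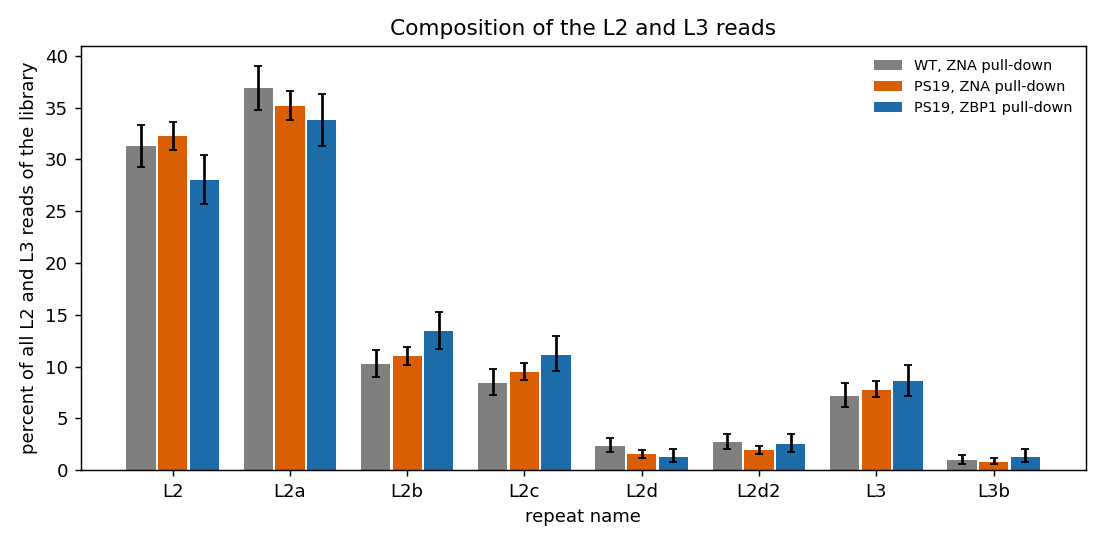
Share of each name in all L2 and L3 reads of a library; bars are single libraries and lines are 95% Wilson intervals. L2 and L2a take the largest shares in all 3 libraries, and the ZBP1 library has the lowest share of L2 (27.99%) and the highest of L2b (13.4%).

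Each member was also set against the sum of the other 7, again without scaling. Of the 16 odds ratios (8 names in both comparisons), 13 had an interval that included 1. The exceptions were L2, 1.22-fold lower relative to the other members in ZBP1 than in ZNA of PS19 (1.07 to 1.40), L2b, 1.25-fold higher there (1.04 to 1.51), and L2d, 1.54-fold lower in PS19 ZNA than in WT ZNA (1.04 to 2.26). These intervals are not widened for the number of ratios computed. The standard deviation of the 8 log2 ratios was 0.29 between the ZNA libraries and 0.30 between the antibodies, against 0.21 and 0.24 from counting error alone.

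The names with a pattern most like that of the pooled L2 and L3 reads were searched among 175 other names with at least 500 reads over the 3 libraries. Likeness was the distance over 2 log2 ratios per reads outside rRNA (PS19 ZNA over WT ZNA and PS19 ZBP1 over PS19 ZNA, which share the PS19 ZNA library); the L2 and L3 pool stood at 0.14 and 0.27. The 5 nearest were ORR1B1 (distance 0.011), ORR1A4 (0.014), ORR1A3 (0.024), MERVL_2A-int (0.029) and ORR1B2 (0.044). The ORR1 names are long terminal repeats of rodent MaLR retrotransposons and MERVL_2A-int is an internal part of a murine endogenous retrovirus. No LINE-1, MIRb or MIR name was among them. The limit of 500 reads left out MIRc, MIR3, MIR1_Amn and every other CR1-type or RTE-type LINE, so the search could not place those names. For the second ratio, all 5 nearest names lay within the pool's own counting interval (log2 0.19 to 0.36). This follows from their choice by small distance and is no separate result. ORR1B1 had 795, 2744 and 1174 reads in PS19 ZBP1, PS19 ZNA and WT ZNA and log2 ratios of 0.14 and 0.26.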

How the data were processed

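The deposited values are raw read counts per repeat name, 1 file per library. Per the submitters' processing notes, Trim Galore 0.6.5, STAR 2.5.3a, featureCounts 2.0.4 and build mm39 were used. The repeat annotation, the strand setting and the treatment of reads that map to several copies are not given in the sources used here. Such reads can be shared among related names, so single subfamilies are less certain than the pool.

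The members and lists were chosen with earlier results of these data known. Named repeats are all 8 members, the fixed lists of MIR, other CR1-type and RTE-type LINEs, L1M and HAL1, and L1Md names, and the 5 names of most similar pattern. With 1 library per group, no test in edgeR can be fitted. Ratios were given exact conditional (Clopper-Pearson) 95% intervals, shares Wilson intervals, and ratios of 2 kinds of reads the exact interval of the odds ratio. They cover counting error only, since each group has 1 library. No molecular identifiers were available, so repeated copies of a molecule could not be removed and the intervals can be too narrow. Calls used a 2-fold limit on log2(CPM + 1), or on the same with non-rRNA CPM. TMM factors were computed per comparison on the names that passed the filter. Alternatives were other pseudocounts, filters, limits, denominators and pools. The scripts were tested on simulated data. Intervals came from scipy 1.17.1 under Python 3.11.15, and TMM factors from edgeR 4.0.16 under R 4.3.3.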

Additional observations from a re-analysis of the deposited data

How the results depend on the processing

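The spread between libraries of the same kind is unknown, and no library can be left out of a group of 1. No paired analysis was possible because each group has 1 library. Depth is lowest with ZBP1 (1 read is 13.4 non-rRNA CPM) and limits L2d, L2d2 and L3b in all libraries. Under TMM factors the pooled log2 ratio of PS19 ZNA over WT ZNA went from 1.37 to 0.058 and that of ZBP1 over ZNA from -0.74 to 0.29, a change of sign. Of the single names, L2a (-0.0094), L2d (-0.55), L2d2 (-0.41) and L3b (-0.13) changed sign in the first comparison, and L2 (0.089), L2a (0.23), L2b (0.58), L2c (0.53), L2d (0.069), L2d2 (0.65), L3 (0.43) and L3b (0.95), that is all 8, in the second; these alternatives for single names were chosen after seeing the data. TMM removes the common shift of the names by construction. Without small structural RNA in the denominator, the pooled PS19 over WT ratio per reads outside rRNA was 0.060 in place of 0.14, and its interval (-0.015 to 0.14) then included 0. Other pools and denominators changed no sign of a pooled ratio, and the L3 names alone moved it to 1.45 and 0.22 (PS19 over WT, per total and per non-rRNA reads) and to -0.54 and 0.47 (ZBP1 over ZNA). For L3 alone, the log2 ratio of ratios in ZBP1 against ZNA was -0.31 against MIR, with an interval reaching 0.0016, 0.85 against L1M and HAL1 and 1.34 against L1Md; between the ZNA libraries it was 0.047 against L1Md (main value -0.035). The L3 names have fewer reads than the L2 names, and the cause of these shifts was not tested. The names past 2-fold between PS19 and WT numbered 533 (530 higher, 3 lower), 43 under TMM (23 and 20), 54 per reads outside rRNA (33 and 21) and 27 at 4-fold. Those between ZBP1 and ZNA numbered 344 (2 higher, 342 lower), 112 under TMM (58 and 54), 126 per reads outside rRNA (62 and 64), 530 without a filter and 42 at 4-fold.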

Other observations

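Other ancient LINE names of the CR1 and RTE types had few reads and did not share a single pattern. Per reads outside rRNA, Plat_L3, a name of the L3 kind, was, within PS19, 3.68-fold higher with ZBP1 than with ZNA on 16 and 18 reads (1.76 to 7.65), L4_B_Mam 2.99-fold higher on 13 and 18 reads (1.35 to 6.46) and MamRTE1 1.88-fold higher on 30 and 66 reads (1.18 to 2.94). Per library total, their ratios were 1.82 (0.868 to 3.78), 1.48 (0.666 to 3.19) and 0.931 (0.584 to 1.45), so that MamRTE1 changed side. L4_A_Mam was in the opposite direction, with 2 reads for ZBP1 and 40 for ZNA. Its ratio was 0.207 (0.0243 to 0.799) per reads outside rRNA and 0.102 (0.0120 to 0.395) per library total. L4_C_Mam, on 16 and 42 reads, was at 1.58 (0.829 to 2.87) and 0.780 (0.409 to 1.42), and both intervals include 1. Of the 19 names on this list, 17 had a read in any library, and 5 passed the filter in this comparison, 4 of them above 0 per reads outside rRNA.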
